A study of Mus musculus with 2 samples.

Results

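T cells of the pressure-overloaded mouse heart were 96 of the 857 cells kept from 1 single-cell transcriptome library (11.2%, exact 95% interval 9.17 to 13.5), and 878 cells were in the deposited matrix. They were chosen by measured values. A cell counted as a T cell when at least 2 of the genes Cd3d, Cd3e, Cd3g and Trac reached 50 CPM (counts scaled to a total of 1000000 in each cell) while the B cell gene Cd79a and the macrophage gene Csf1r each stayed under 50 CPM. Cells with over 25% mitochondrial counts, 21 in all, had been left out. The levels of these genes describe the choice and are not findings. The comparison cells are the 761 other kept cells.

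The hearts came from mice with Cdh5-CreERT2, a tamoxifen-inducible Cre recombinase driven by the promoter of an endothelial cadherin, and REFLEX, a reporter whose GFP marks interacting cells according to the series record. All mice received tamoxifen and underwent transverse aortic constriction (TAC), which narrows the aorta and loads the heart with pressure. Cells sorted as CD45-positive or CD45-negative, each split into GFP-positive and GFP-negative, were pooled, and 20000 cells entered a bead-based capture (BD Rhapsody, amplified by TAS-Seq), giving 1 transcriptome and 1 hashtag library. There were no unoperated mice, the strain background, number and age of the mice are not stated in the labels, and no label ties a hashtag to a sorted fraction, so neither TAC nor GFP was compared. With 1 library there is no replicate and no test across animals. Intervals are exact 95% intervals that cover counting error only, and they are too narrow if the deposited counts are reads.

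T cells recognise peptide or lipid antigens through the T cell receptor, a pair of variable chains held in a complex with the CD3 proteins. The coreceptor CD4 marks helper and regulatory cells, and CD8 marks cytotoxic cells. Naive and central memory cells circulate through lymph nodes by means of receptors such as the chemokine receptor Ccr7 and the lipid receptor S1pr1, while effector and memory cells enter tissues and make cytokines, chemokines and granzymes. In the pressure-overloaded heart, T cells are known as part of the inflammatory infiltrate.

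The 3 CD3 genes, which the rule used to choose the cells, lie side by side on mouse chromosome 9, and their promoters are shown for context only. The sequences are from RefSeq on GRCm38.p6 and run 5′ to 3′ from 250 bases before the gene start to 50 after it. They were not measured in this series, whose own build was GRCm39. Capitals mark the core letters AGGAAG or CGGAAG of ETS factors and CTTTGA of TCF and LEF factors, on either strand.
Cd3d promoter, chr9:44981536-44981835, plus strand: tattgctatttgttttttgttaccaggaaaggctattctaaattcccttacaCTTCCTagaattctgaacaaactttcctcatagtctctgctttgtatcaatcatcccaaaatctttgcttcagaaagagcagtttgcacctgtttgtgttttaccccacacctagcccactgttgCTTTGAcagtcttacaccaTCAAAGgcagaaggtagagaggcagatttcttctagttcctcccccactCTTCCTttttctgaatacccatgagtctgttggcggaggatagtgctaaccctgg
Cd3e promoter, chr9:45009562-45009861, minus strand: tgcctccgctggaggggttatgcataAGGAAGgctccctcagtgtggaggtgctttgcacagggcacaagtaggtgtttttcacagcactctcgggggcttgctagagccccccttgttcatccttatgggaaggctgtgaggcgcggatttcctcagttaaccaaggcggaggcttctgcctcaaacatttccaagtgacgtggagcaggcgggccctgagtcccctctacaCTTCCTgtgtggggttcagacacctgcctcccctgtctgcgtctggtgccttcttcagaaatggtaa
Cd3g promoter, chr9:44980382-44980681, minus strand: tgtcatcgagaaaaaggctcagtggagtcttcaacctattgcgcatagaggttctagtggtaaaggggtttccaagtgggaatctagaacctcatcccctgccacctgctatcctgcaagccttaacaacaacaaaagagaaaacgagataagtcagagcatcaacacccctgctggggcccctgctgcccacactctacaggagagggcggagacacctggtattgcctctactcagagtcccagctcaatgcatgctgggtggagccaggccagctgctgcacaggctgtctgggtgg
The Cd3d window held 2 ETS and 2 TCF/LEF matches, the Cd3e window 2 and 0, and the Cd3g window 0 and 0. Of 32851 mouse promoters of 300.0 bases, 46.5% held an ETS match and 16.0% a TCF/LEF match. Of the other letters searched on both strands, TGTGGT of RUNX factors (16.8% of promoters) was in none of the 3 windows, and AGATAA of GATA factors (11.2%) was once in that of Cd3g. The E-box letters CAGCTG or CACCTG (32.9%) were once each in those of Cd3d and Cd3e and 3 times in that of Cd3g. These matches describe letters and not bound sites.

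Of the 96 T cells, 61 held all 4 genes, 24 held 3 and 11 held 2, while 20 other kept cells held 1. The second-highest of the 4 genes reached 100.3, 122, 162, 197 and 198 CPM in the 5 T cells nearest the limit, and 25.2, 21.1, 20.3, 16.3 and 15 CPM in the 5 nearest cells outside it. Another 3 cells met the gene rule but were left out for Cd79a, and none for Csf1r. Il7r, the interleukin-7 receptor gene named as a T cell marker but not used by the rule, reached 50 CPM in 66 T cells (68.8%, 58.5 to 77.8) and in 28 other cells (3.68%).

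T cells were sequenced about as deeply as the rest. Their median was 87319 counts per cell (range 28407 to 572539), beside 76157 in all other cells, 67914 in 165 B cells and 64416 in 280 neutrophils, the last 2 picked by at least 2 of 4 marker genes of their own. Of the 8 B cell, 8 neutrophil and 10 monocyte and macrophage markers, all were lower in T cells than in all other cells, as were 6 of 8 natural killer (NK) markers. No T cell held at least 3 B cell markers at 50 CPM, 2 held 3 NK markers, 4 held 3 neutrophil markers and 1 held 3 monocyte and macrophage markers. Transcripts of abundant neutrophil genes were nevertheless widespread at low level: S100a8, at 9518 CPM in all other cells, stood at 125 CPM in T cells and reached 50 CPM in 88 of the 96. Low levels in T cells of genes that other cells hold in plenty were not read as expression.

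A gene is called higher or lower in T cells when its counts, summed over cells and scaled to CPM, differed at least 2-fold from those of the other cells after adding 1 CPM on each side, with an interval that excluded a ratio of 1. Among 18243 genes with at least 50 counts, 14.4% were higher and 18.9% lower, with a median log2 ratio of -0.04 over all of them. These shares are the background for every list count that follows. For the genes that matter most, the numbers of B cells and neutrophils that held them are given as well.

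**Figure D1:**
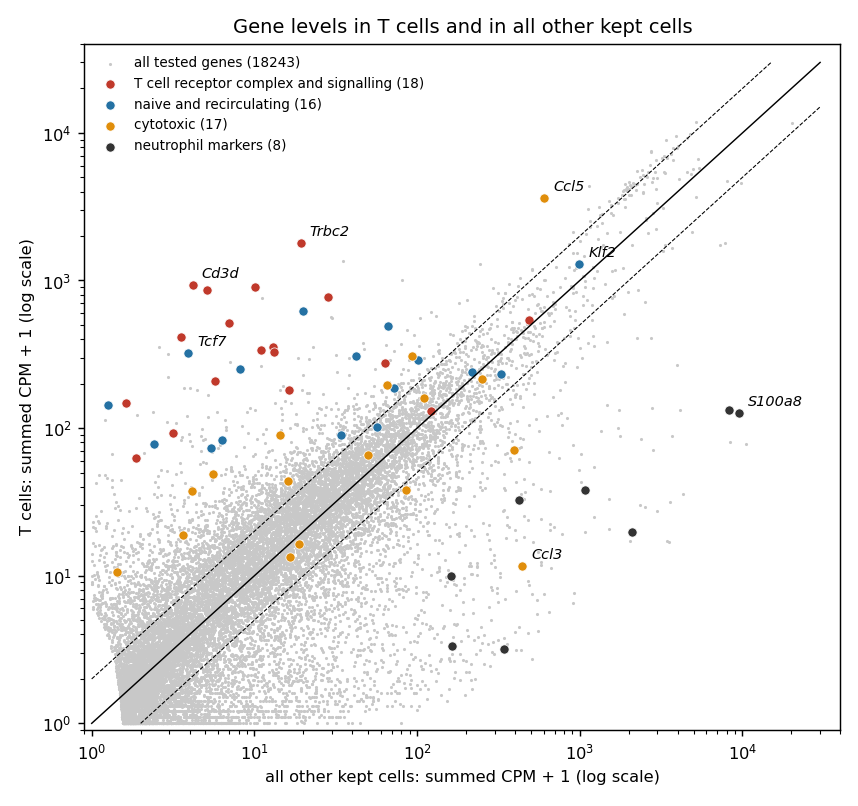
Summed level of each of 18243 genes in 96 T cells (vertical axis, CPM + 1, log scale) against all other kept cells (horizontal axis, same scale), with equality (solid line) and 2-fold lines (dashed). Genes of the receptor complex sit above the upper dashed line except Lcp2 and Fyb, and neutrophil markers sit below the lower one.

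Most genes of the T cell receptor complex and its signalling that the rule did not use were also higher in T cells. Without the 4 genes of the rule the list held 14, of which 12 were higher and none lower. Their summed level ran from 1336 CPM in the lowest T cell over a median of 5373 to 21988 in the highest, beside 777 in all other cells together. Trbc2, a constant gene of the receptor's beta chain that the rule did not use, stood at 1781 CPM (1755 to 1808) in T cells and 18.2 in all other cells, and reached 50 CPM in 92 of the 96. It did so in 3 of 165 B cells and no neutrophil, but in 10 of 27 NK cells. The other beta chain constant gene, Trbc1, divided the T cells: it reached 50 CPM in 55 of them (57.3%, 46.8 to 67.3), and also in 24 of the 27 NK cells. Trbc1 and Trbc2 are near-identical copies, so reads may be shared between them.

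Several signalling genes behind the receptor were higher as well. Lat, the adaptor that collects signalling proteins at the receptor, stood at 517 CPM in T cells and 6.0 in all other cells. Lck, the kinase that starts receptor signalling, stood at 354 and 12.1 CPM. These genes reached 50 CPM in 76 and 80 of the 96 T cells and in 2 and 10 of the 165 B cells. Fyb (543 and 485 CPM) and Lcp2 (130.4 and 120.0 CPM), adaptors that myeloid cells also use, passed neither call.

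All 13 genes of the T lineage list were higher in T cells. Thy1, a surface glycoprotein of T cells, stood at 759 CPM (742 to 777) beside 10.2, and Ets1, a lymphocyte transcription factor, at 613 beside 121. Tcf7, the transcription factor TCF-1 of naive and memory T cells, stood at 322 CPM (310.4 to 333) beside 2.91 and reached 50 CPM in 74 T cells. It did so in 4 of 165 B cells, 1 of 27 NK cells and none of 280 neutrophils. Satb1, a chromatin organiser, was at 493 beside 65.0 CPM, and Cd2, an adhesion receptor, at 376 beside 45.2 CPM. Outside the lists, Ms4a4b, a membrane protein gene of T cells, stood at 1364 beside 34.0 CPM, with 79 T cells and 23 of 27 NK cells at 50 CPM. The costimulatory receptor gene Icos, of the list for natural killer T and follicular helper cells, stood at 356 beside 1.59 CPM. Of 7 tested genes of that list 2 were higher and 3 lower. Gramd3 stood at 568 beside 28.6 CPM, with 76 T cells and 59 B cells at 50 CPM.

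The largest deficits, among genes at 200.0 CPM or more in all other cells, were of myeloid and antigen-presenting cells. Lyz2, lysozyme of myeloid cells, stood at 77.0 CPM in T cells and 10473 in all other cells, and Chil3, a chitinase-like protein of monocytes and neutrophils, at 15.9 and 3555. H2-Aa (16.3 and 3415 CPM), a chain of the class II molecules that present peptides to CD4 T cells, was low as well. So was Cd74 (79.3 and 8408 CPM), the chaperone of class II molecules. Apoe (34.6 and 4295 CPM), an apolipoprotein of macrophages, and Wfdc17 (30.7 and 3574 CPM) completed the 6 lowest.

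**Figure D2:**
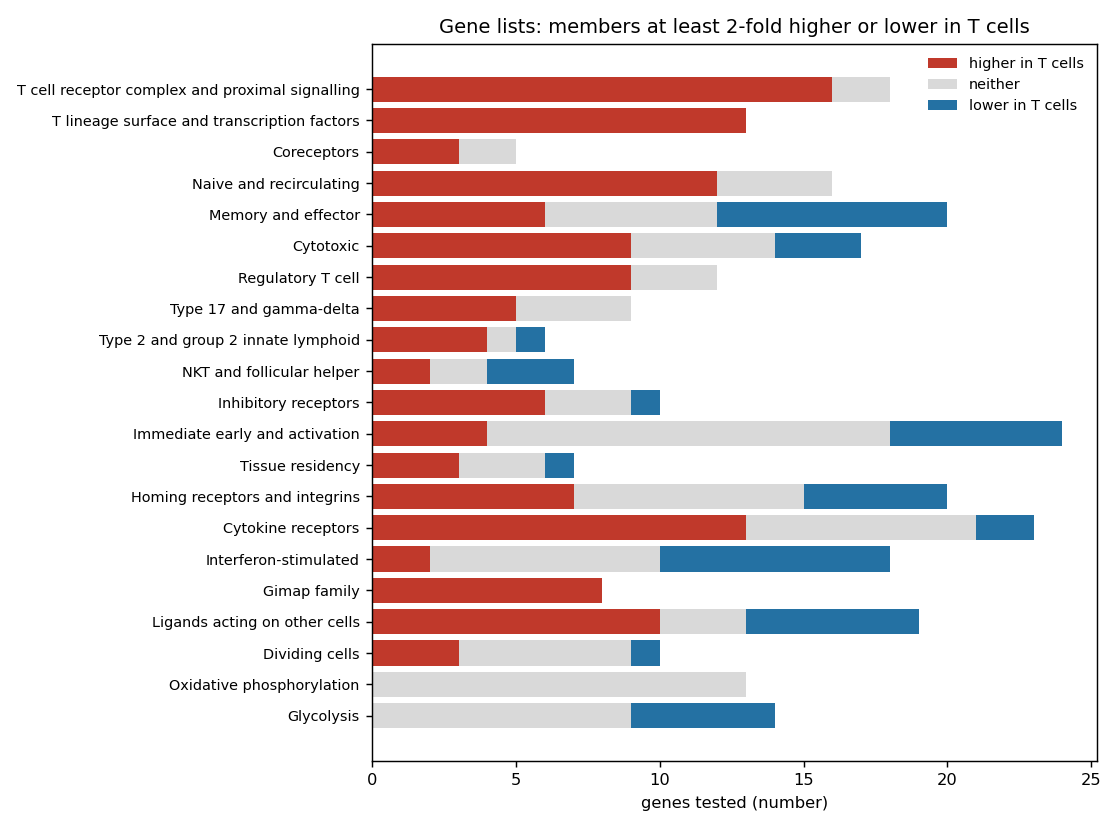
Number of tested genes in each of 21 gene lists (horizontal bars) that were at least 2-fold higher (red) or lower (blue) in T cells than in all other kept cells, or neither (grey). All 13 lineage genes and all 8 Gimap genes were higher, and no oxidative phosphorylation gene passed either call.

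Coreceptor genes divided the T cells into near-equal CD4 and CD8 subsets. Cd4 alone reached 50 CPM in 30 cells (31.3%, 22.2 to 41.5) and Cd8a or Cd8b1, the alpha and beta chains of CD8, without Cd4 in 31 cells (32.3%, 23.1 to 42.6). Another 7 cells (7.29%, 2.98 to 14.4) held both kinds, and 28 (29.2%, 20.3 to 39.3) held neither. In summed level, Cd4 stood at 122 CPM in T cells and 0.899 in all other cells, Cd8a at 128 and 1.37, and Cd8b1 at 318 and 1.96. No B cell, NK cell or neutrophil held Cd4 at 50 CPM, whereas 3 B cells held Cd8b1. With any count above 0 accepted, the subsets numbered 33, 30, 12 and 21. Median depth was 85263 counts in CD4 cells, 96006 in CD8 cells and 91224 in cells with neither. Runx3 (69.2 and 80.2 CPM) and Zbtb7b (13.3 and 17.8 CPM), the transcription factors that direct the CD8 and CD4 lineages, passed neither call.

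Few genes passed the call between CD4 and CD8 cells, which left out genes that rested on 1 cell. Of 3101 genes tested, 2.13% were higher in CD4 and 1.29% in CD8 cells. The call asked for at least 2-fold after 20 CPM was added, 50 CPM in the higher subset, and no cell with over 20% of its counts. The last condition bears on the CD4 side, where the deepest cell had 572539 counts beside a median of 85263. Genes high in that cell could fail by its depth, and other limits than 20% were not tested. The 66 genes higher in CD4 cells became 37, 34 and 37 when cells named for the tags A951, A953 or A965 were left out, and the 40 higher in CD8 cells became 23 without A951 and 7 without A965. After Cd4, which set the subsets, CD4 cells were led by H1f0, a linker histone gene (212 against 11.4 CPM, 11 against 2 cells at 50 CPM), and Trat1, an adaptor of the receptor complex (201 against 20.9 CPM, 13 against 4 cells). Next came Hif1a, the oxygen-regulated transcription factor (155 against 14.8 CPM, 16 against 4 cells), and Samsn1, a negative adaptor of lymphocyte activation (399 against 67.7 CPM, 20 against 8 cells). Me2, Trib2, Tmem154, Rps6ka3 and Ssr2 followed, with log2 differences of 2.24 to 1.65. For Hif1a, Samsn1, Me2, Tmem154, Rps6ka3 and Ssr2, 1 cell held 17.4% to 19.4% of the CD4 counts, just under the limit of 20%.

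CD8 cells were led, after Cd8b1 and Cd8a, by Ly6c2, a surface antigen of memory CD8 cells and monocytes. It stood at 860.0 CPM in CD8 and 33.3 in CD4 cells and reached 50 CPM in 14 of 31 against 1 of 30 cells. Klrd1, the CD94 chain of NK-type receptors, stood at 454 against 76.4 CPM (20 against 2 cells), and Ctsw, a protease of cytotoxic lymphocytes, at 159 against 31.9 CPM (15 against 2 cells). Fam241a stood at 374 against 25.9 CPM, with 18 against 4 cells. Ccl5, a chemokine that draws monocytes and T cells, was at 6784 CPM in CD8 and 1798 in CD4 cells, reaching 50 CPM in 14 and 6 of them. Most of the CD4 count, 78.0%, came from 1 cell. Hpcal1, Sidt1 and Ndufa9 were also higher in CD8 cells, with log2 differences of -1.80 to -1.66.

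**Figure D3:**
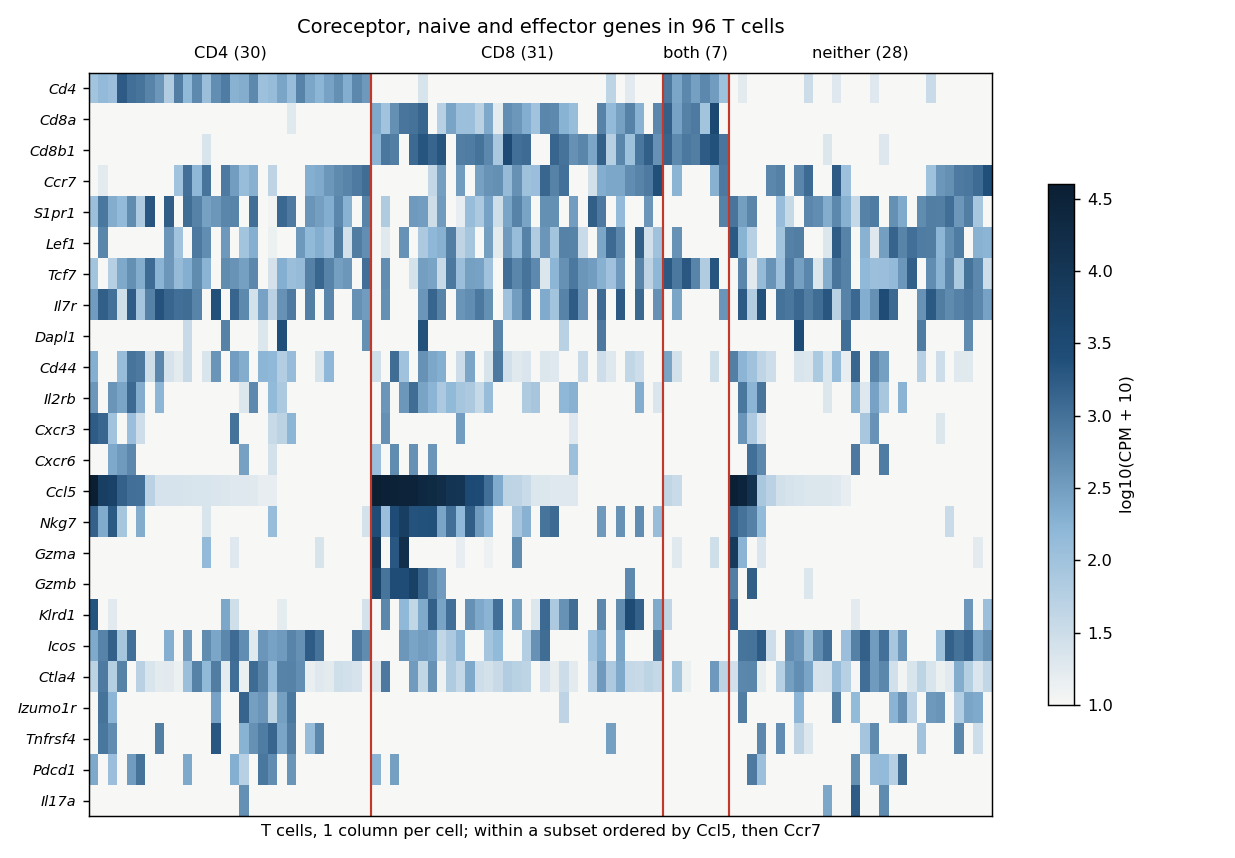
Levels of coreceptor, naive, effector, helper and type 17 genes (rows, colour as log10 of CPM + 10) in each of the 96 T cells (columns), grouped by coreceptor subset and ordered within a subset from high to low Ccl5, then from low to high Ccr7. The cells with the darkest Ccl5 boxes, at the left of each subset except that of both coreceptors, often carry Nkg7, and Gzmb boxes lie mostly in CD8 cells.

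Most genes of naive and recirculating T cells were higher in the T cells. Of 16 listed genes 12 were higher in T cells and none lower, and 91 of the 96 cells held at least 3 of them at 50 CPM. Holding 3 does not mark a cell as naive: 29 of 31 CD8 cells did so, while 20 of the 31 held at least 3 genes of the cytotoxic list. Il7r, which carries the survival signal of interleukin-7, stood at 616 CPM beside 18.8 in all other cells. S1pr1, the receptor for exit from lymphoid organs, stood at 305 beside 41.4 CPM and reached 50 CPM in 61 T cells, and Ccr7 at 290 beside 99.8 CPM in 50 T cells. B cells share both genes: 102 of 165 held S1pr1 and 131 held Ccr7, while no neutrophil held either. Lef1, the partner factor of TCF-1, stood at 251 beside 7.12 CPM and reached 50 CPM in 55 T cells, 9 B cells and no neutrophil.

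Klf2, a transcription factor that drives S1pr1, did not set T cells apart. Klf2 stood at 1295 and 994 CPM, with 82 T cells at 50 CPM. Dapl1, a gene of naive CD8 cells, was found in 10 T cells with up to 2879 CPM and in no B cell, NK cell or neutrophil. Of the 10, 3 were CD4 cells, 3 CD8 cells and 4 held neither coreceptor, among them the highest. Igfbp4, an insulin-like growth factor binding protein, stood at 82.6 beside 5.31 CPM in 20 T cells.

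The memory and effector list was mixed, with 6 of 20 genes higher and 8 lower. Cd44, the hyaluronan receptor that antigen-experienced T cells raise, stood at 121 CPM in T cells beside 738 in all other cells, and 28 T cells (29.2%, 20.3 to 39.3) against 251 of 280 neutrophils reached 50 CPM. S100a6, a calcium-binding protein of memory cells, stood at 714 beside 2521 CPM. The 6 higher genes included Il2rb, the interleukin-2 and interleukin-15 receptor chain (104 beside 24.5 CPM in 31 T cells), Cxcr3, the receptor for interferon-induced chemokines (68.3 beside 4.47 CPM in 12), and Cxcr6, a receptor of tissue-resident T cells (66.3 beside 0.336 CPM in 13). All 27 NK cells held Il2rb, and none held Cxcr3 or Cxcr6. Lgals1, a galectin (916 and 888 CPM), and Ly6c2 (330.4 and 372 CPM) passed neither call.

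Ccr7 fell mostly in different T cells from Ccl5, Cd44 and Cxcr6. Klrd1 went the other way and was found more often in cells with Ccr7 than in the others. Ccl5 was found in 10.0% of the 50 cells with Ccr7 and 41.3% of the 46 others, and Cd44 in 12.0% and 47.8%. In CD4 cells no cell held both Ccr7 and Ccl5, whereas 5 CD8 cells did. Cxcr6 and Ccr7 met in 1 of the 13 cells with Cxcr6 (7.69%), while 59.0% of the other T cells held Ccr7. S1pr1 was found in 68.0% of the cells with Ccr7 and 58.7% of those without it. These co-detections are across cells of 1 library and share its depth.

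Thinning each cell to 25000 counts left the same picture for most genes. A count of Ccr7 was then found in 52.1% of T cells, of S1pr1 in 66.7% and of Lef1 in 59.4%, against 56.3%, 69.8% and 67.7% with all counts. Neutrophils held Ccr7 in 3.21%, S1pr1 in 2.5% and Lef1 in 3.21% at that depth. Cd44 fell from 62.5% to 43.8% of T cells and Ccl5 from 59.4% to 36.5%, beside 18.8% of B cells and 17.5% of neutrophils with Ccl5. Ccl5 at a single count was thus found in many cells of types that should lack it, and the 50 CPM limit was met by 24 T cells, 3 of 165 B cells and 7 of 280 neutrophils.

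**Figure D4:**
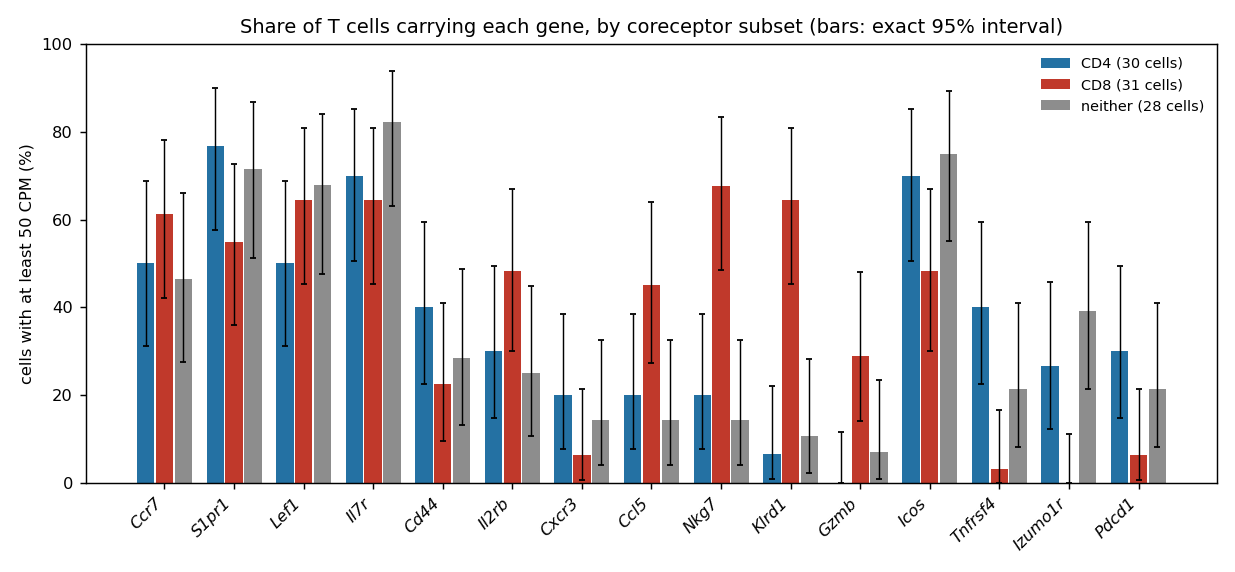
Share of cells with at least 50 CPM of 15 genes (vertical axis, %) in CD4, CD8 and neither-coreceptor T cells, with exact 95% intervals as error bars. Nkg7, Klrd1 and Gzmb bars are highest in CD8 cells, Tnfrsf4 is highest in CD4 cells, and Izumo1r is at 0 in CD8 cells.

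Each cytotoxic gene was held by a minority of T cells. Of 17 listed genes 9 were higher in T cells (52.9%) and 3 lower (17.6%), the latter near the 18.9% over all tested genes. At least 1 of them reached 50 CPM in 64 of the 96 cells (66.7%), but no single gene did so in more than 31. Ccl5 ranged from 0 over a median of 9.17 to 42651 CPM per cell, and 24 cells (25%, 16.7 to 34.9) reached the limit. Of these 24, 22 held Nkg7, a granule protein of cytotoxic lymphocytes, against 12.5% of the other T cells, and 18 held Il2rb, against 18.1%. Nkg7 itself was found in 21 of 31 CD8 cells (67.7%, 48.6 to 83.3), 6 of 30 CD4 cells (20%, 7.71 to 38.6) and 4 of 28 with neither. All 27 NK cells held Ccl5 and Nkg7, and no B cell or neutrophil held Nkg7.

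Granzymes were rarer. Gzmb, the granzyme that triggers cell death, was found in 11 T cells (11.5%, 5.86 to 19.6): 9 CD8 cells, none of 30 CD4 cells, which allows up to 11.6% of cells at that level, and 2 with neither coreceptor. It stood at 158 CPM in T cells and 109 in all other cells, and 26 of 27 NK cells held it. Gzma was found in 7 T cells, of which 1 held 54.4% of the counts, and Prf1, perforin, in 6, all CD8. Ifng, the interferon gamma gene, was found in 4 T cells, and 1 held 49.9% of its 36.5 CPM. Of 14 T cells with Gzma or Gzmb, 2 held 4 NK markers each. One was a CD8 cell by Cd8a with Tyrobp at 3820 and Fcer1g at 3741 CPM and the highest Gzma of all, 14963 CPM. The other, with neither coreceptor, held Ncr1 at 1303 CPM. Their part in the cytotoxic levels was not tested beyond leaving out the 7 T cells with 3 markers of another type, which moved neither count of called genes in that list by over 1.5 times.

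Splitting the T cells at Ccl5, a split chosen after its values were seen, set 24 cells against 72. Besides Nkg7, the cells with Ccl5 held more Ly6c2 (15 of 24 against 3 of 72 cells), Ctsw (15 against 6), the calcium-binding S100a6 (21 against 14) and the scaffold Ahnak (17 against 16). Genes of the other side were Igfbp4 (0 against 20 cells), Ccr9, a gut and thymus homing receptor (0 against 15), Sox4, a transcription factor of early lymphocytes (1 against 18), and Trib2, a pseudokinase (1 against 30). The 7 cells with both coreceptors all fell on the side without Ccl5, and without them Ccr9 was held by 0 against 9 and Sox4 by 1 against 12 cells.

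Most genes of the regulatory T cell list were higher in T cells, while Foxp3 was near the limit of detection. Of 12 regulatory T cell genes 9 were higher in T cells and none lower. Foxp3, which defines regulatory T cells, reached 50 CPM in none of the 96 cells and had any count in 6. These counts do not limit the share of cells that express a gene at so low a level. Any count of Foxp3 was found in 6.25% of T cells, 9.09% of B cells and 4.64% of neutrophils, so it did not set T cells apart. After thinning Foxp3 was found in 1.04% of T cells (0.0264 to 5.67), no B cell and 0.357% of neutrophils. Tnfrsf18, the receptor GITR, stood at 299.8 CPM beside 17.6 in all other cells and was found in 43 T cells, 8 B cells and 13 neutrophils. Ctla4, an inhibitory receptor, stood at 180.4 beside 13.4 CPM and was found in 35 T cells, 13 B cells and 1 neutrophil. Any value of Ctla4 above 0, fractions of an estimated count included, was found in 91.5% of B cells and 92.7% of T cells. In T cells such values went as low as 0.155 CPM, so these shares are not shares of cells with a whole count. After thinning, which rounds counts first, Ctla4 was found in 35.2% of B cells and 58.3% of T cells. Tnfrsf4, the receptor OX40, stood at 181 beside 3.44 CPM, and 1 cell held 43.6% of its counts.

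Genes of this list differed in how the coreceptor subsets held them. Ctla4 was found in 13 of 30 CD4, 10 of 31 CD8 and 10 of 28 neither-coreceptor cells. Tnfrsf4 was found in 12 of 30 CD4 cells (40.0%, 22.7 to 59.4), 1 of 31 CD8 cells (3.23%, 0.0816 to 16.7) and 6 of 28 with neither. Izumo1r, the folate receptor FR4 of regulatory and anergic T cells, was found in 8, 0 and 11 cells and in no B cell, NK cell or neutrophil. Ikzf2, the factor Helios, was found in 8, 1 and 4 cells. Izumo1r and Tnfrsf4 met in 9 cells, so 47.4% of cells with Izumo1r held Tnfrsf4 against 13.0% of the rest. This came from the CD4 cells, where all 8 cells with Izumo1r held Tnfrsf4, against 18.2% of the other CD4 cells. Among cells with neither coreceptor the order was reversed, with 1 such cell (9.09%) against 29.4% of the others. For Izumo1r, the 11 of 28 cells with neither coreceptor (39.3%, 21.5 to 59.4) overlap in interval with the 8 of 30 CD4 cells (26.7%, 12.3 to 45.9).

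Inhibitory receptors were higher for 6 of 10 genes and lower for 1. Pdcd1, the receptor PD-1, stood at 97.0 beside 3.76 CPM and was found in 17 T cells, 9 CD4, 2 CD8 and 6 with neither, and in 1 B cell and no neutrophil. Tox, a transcription factor of chronically stimulated T cells, stood at 118 beside 4.18 CPM in 22 T cells, 1 B cell and no neutrophil, and 6 of the 17 Pdcd1 cells held it. Tigit, an inhibitory receptor shared with NK cells, stood at 32.9 beside 1.5 CPM in 19 cells. Havcr2, the receptor TIM-3 that myeloid cells also carry, was lower, at 4.38 beside 100.2 CPM. Btla, at 54.7 and 37.9 CPM, was found in 73 B cells and 17 T cells and passed neither call.

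Type 17 and gamma-delta genes belonged to a handful of cells. Of 9 tested genes 5 were higher in T cells and none lower. Trdc, the constant gene of the delta chain, was found in 2 T cells at 1367 and 2202 CPM, both with neither coreceptor. Both had Trac at 0 and held Il17a, the interleukin-17A gene, at 1676 and 507 CPM, along with Il23r, Cxcr6 and Trgc1, a gamma chain constant gene. NK cells held Trdc too, in 7 of 27. Il17a was found in 4 T cells in all and in no B cell, NK cell or neutrophil. Gata3, the factor of type 2 cells that also serves all T cells, was found in 18 T cells and stood at 57.4 beside 4.04 CPM, while Il4 and Il13 reached 50 CPM in no T cell.

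The 7 cells with both coreceptors differed from the other T cells in genes of developing thymocytes, a list added after these cells were seen. Of Rag1, Rag2, Dntt, Ptcra, Arpp21 and Endou, 5 of the 7 cells held at least 3 at 50 CPM, while no other T cell and none of 761 other cells held more than 1. Rag1, which cuts receptor genes for rearrangement, was at 112.9, 73.1, 107.8 and 79.9 CPM in 4 of the 7 and under 50 CPM in every other T cell. Dntt, which adds bases at the joins, was at 143, 310.1, 659, 175 and 1456 CPM in 5 of them and reached 50 CPM in 1 of the 89 other T cells. Endou reached 50 CPM in 5 of the 7 and 1 of the 89. Other genes of the list were rarer: Rag2 and Ptcra reached it in only 1 of the 7 each, and Themis and Cd1d1 in 3 each. Cd24a, the heat-stable antigen of immature T cells, was found in 5 of the 7 and 9 of the 89, but also in 316 of the 761 other cells.

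Some genes of mature T cells were missing from the same cells. Icos was at 0 counts in all 7 and found in 57 of the 89 others, and Gimap3, a GTPase of mature lymphocytes, reached 50 CPM in 0 of 7 and 67 of 89. Il7r was found in 2 and S1pr1 in 1 of the 7. Ccl5, Nkg7 and Lgals1 reached 50 CPM in none. Icos, Gimap3, Nkg7 and Lgals1 were picked because none of the 7 reached 50 CPM, so their absence describes the choice. Other genes of recirculating cells were present in part: Ccr7 in 3 of the 7, at 167, 182 and 800.0 CPM. Klf2 stood at 294, 819, 885 and 53.9 CPM in cells of this subset. Higher in the 7 were Ccr9 (6 of 7 against 9 of 89 cells), Sox4 (6 against 13) and the histone gene H2bu2 (6 against 12). These 3 were picked because most of the 7 held them and their ratios to the other T cells were high, so their counts describe the choice as well.

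Of the 7 cells, 3 were named A965, 2 A951, 1 A953 and 1 doublet by the authors, and their median depth was 53130 counts, below that of every other subset. The cell named doublet held 1 of the 6 genes, and another held none, with Il7r at 391, S1pr1 at 633 and Klf2 at 819 CPM. The source of these cells was not tested. Without the 7, the share of T cells was 10.5% of 850 kept cells, and Ccr7 and Ccl5 were found in 52.8% and 27% of the other 89.

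**Figure D5:**
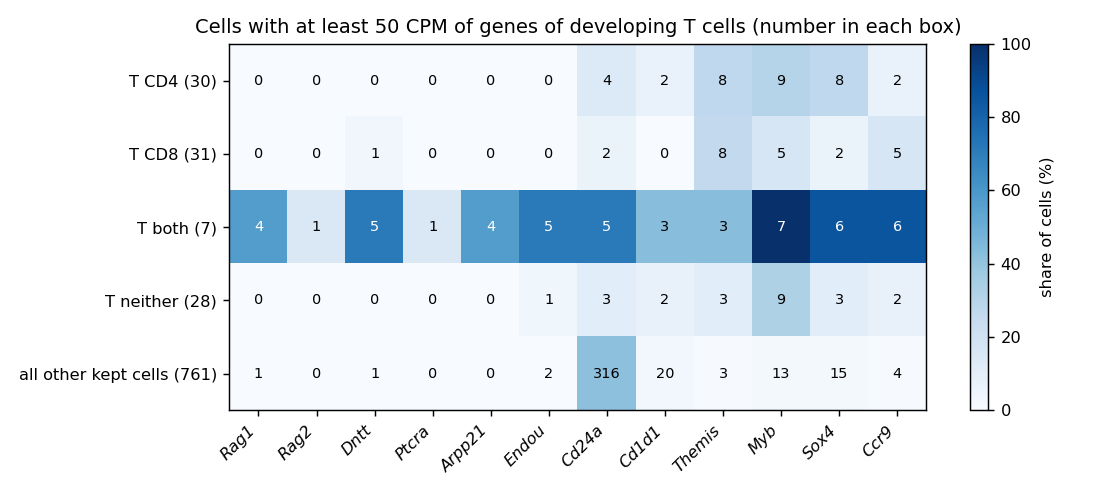
Number of cells with at least 50 CPM of 12 genes of developing T cells (columns) in the 4 coreceptor subsets and in all other kept cells (rows), coloured by the share of cells. The row of the 7 cells with both coreceptors is dark for Rag1, Dntt, Arpp21 and Endou, which are near 0 in every other row. It is pale for Rag2 and Ptcra, at 1 cell each.

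Variable genes of the receptor gave a view of its diversity. The matrix held 11 beta chain (Trbv) and 21 alpha chain (Trav) variable genes, a part of the loci, and 55 T cells (57.3%) held at least 3 counts of a Trbv gene against 4 of 761 other cells (0.526%). Trbv12-2 was found in 20 cells (20.8%, 13.2 to 30.3), Trbv13-2 in 11, Trbv13-3 in 9, Trbv19 in 8, Trbv16 and Trbv3 in 6 each, Trbv2 in 5, Trbv31 in 4 and Trbv13-1 and Trbv21 in 3 each. One Trbv gene was found in 38 cells and at least 2 in 17. Of these 17, 14 held Trbv12-2, and 8 of the 11 cells with Trbv13-2 held Trbv12-2 as well. Reads shared between similar genes were not tested, so the Trbv12-2 count is uncertain. No Trbv gene was held by most T cells. A Trbv gene was found in 22 of 30 CD4, 17 of 31 CD8, 4 of 7 both-coreceptor and 12 of 28 neither-coreceptor cells, and a Trav gene in 13 T cells.

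Among genes for ligands that act on other cells, 10 of 19 were higher in T cells and 6 lower. Tnfsf8, the CD30 ligand, stood at 185 beside 2.69 CPM and was found in 13 CD4, 2 CD8 and 10 neither-coreceptor cells. Tnfsf11, the osteoclast factor RANKL, stood at 67.0 beside 1.10 CPM in 10 T cells, and Cd40lg, which activates B cells and macrophages, at 47.5 beside 0.204 CPM in 8, with none of either in the 31 CD8 cells. Ltb, lymphotoxin beta, stood at 114 beside 52.9 CPM. Tgfb1, transforming growth factor beta, was lower, at 80.8 beside 242 CPM, as were Tnf (37.0 beside 84.5 CPM) and Ccl4 (69.8 beside 391.6 CPM).

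Of 23 genes for cytokine receptors and their signalling, 13 were higher in T cells and 2 lower. Ifngr1, the interferon gamma receptor, stood at 822 beside 344 CPM and was found in 88 T cells, Tgfbr2 at 140.1 beside 47.6 CPM, and Stat5b, a signal carrier of interleukin-2 and interleukin-7, at 107 beside 31.7 CPM. All 8 Gimap genes, GTPases of lymphocyte survival, were higher, led in ratio by Gimap4 (555 beside 28.8 CPM) and with Gimap6 in 86 T cells. Gimap genes are shared with B cells, of which 116 of 165 held Gimap6, and neutrophils held none of it.

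Homing and residency genes were higher more often than all tested genes, while their lower shares were nearer to those over all genes. Of 20 homing receptors and integrins 7 were higher (35%) and 5 lower (25%), beside 14.4% and 18.9% over all tested genes. Among the lower were Cxcr4 (78.4 beside 253 CPM) and Itgb2, the leukocyte integrin chain (103 beside 300 CPM, with 34 T cells and 229 of 280 neutrophils at 50 CPM). Of 7 residency genes, Cd69 (195 beside 71.5 CPM, 26 T cells), Cxcr6 and Itgae were higher (42.9%) and Litaf lower (14.3%). Itgae, the integrin of epithelial-resident T cells, was found in 3 cells, all CD8. S1pr1, which resident cells lose, was found in 16 of the 26 Cd69 cells (61.5%) and 64.3% of the others, and in 6 of the 13 Cxcr6 cells.

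Immediate early genes, switched on within minutes of a stimulus or of cell isolation, were higher for 4 of 24 (16.7%) and lower for 6 (25%), near the 14.4% and 18.9% over all tested genes. Fos stood at 417 beside 1205 CPM, Dusp1 at 298 beside 1035 CPM and Junb, which passed neither call, at 895 beside 1208 CPM. Tnfaip3, a brake on NF-kappaB, was higher, at 431 beside 158 CPM. Of 18 interferon-stimulated genes 2 were higher and 8 lower. Isg15 stood at 48.8 beside 173 CPM and Ly6e at 758 beside 1587 CPM, while Ly6a, the antigen Sca-1, was higher at 307 beside 124 CPM, in 15 CD4 and 3 CD8 cells.

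Metabolic genes were flat or lower. None of 13 oxidative phosphorylation genes passed either call, with Cox4i1 at 919 and 909 CPM, and 5 of 14 glycolysis genes were lower, among them Pkm (229 beside 498 CPM). The counts of 1 cell weighed on these lists. It was a CD4 cell named A953 with 572539 counts, 5.87% of all T cell counts, and held 30.4% of the Gapdh and 61.2% of the Tpi1 counts. Without it 8 glycolysis genes were lower. The same cell held 92.0% of Mki67, 93.3% of Pclaf and 93.0% of Birc5 counts, genes of dividing cells. It was the only T cell with Mki67 at 50 CPM, at 179.9 CPM. With it 3 of 10 division genes were higher and 1 lower, and without it 1 was higher and 6 lower. Outside these lists the cell held 28.1% of the Pdcd1 and 23.2% of the Ly6a counts of T cells. Without it Pdcd1 stood at 74.1 CPM and Ly6a at 250.6 CPM in T cells.

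The reporter transcript mCherry, whose role in REFLEX the labels do not state, was lower in T cells at 199.3 beside 449 CPM. At 25000 counts per cell it was found in 61.5% of T cells (51.0 to 71.2), 48.5% of B cells, 77.8% of NK cells and 91.4% of neutrophils. Among T cells it was found in 56.7% of CD4, 48.4% of CD8 and 78.6% of neither-coreceptor cells at that depth, with intervals that overlap. No cells known to lack the transgene were in the pool.

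T cells were spread unevenly over the authors' tag names. Of the 96, 44 were named A965 (45.8%, 35.6 to 56.3), 28 A953 (29.2%), 21 A951 (21.9%), 2 doublet and 1 A952 (1.04%, 0.0264 to 5.67), while other cells were A951 in 38.8%, A965 in 26.7%, A952 in 17.5% and A953 in 11.3%. T cells made up 24.6% of kept cells named A953, 17.8% of A965, 6.65% of A951 and 0.746% of A952. All 96 T cell barcodes were also in the hashtag table. There the tag counts and the names differed: the named tag led the hashtag counts of 21 of 21 A951 T cells but of only 2 of 28 A953 and 2 of 44 A965 T cells, whose median A951 count was 29 in each. All other kept cells showed the same mismatch, with the named tag highest in 12 of 86 A953 and 15 of 203 A965 cells. Ccl5 was found in 9 of 21 A951, 6 of 28 A953 and 9 of 44 A965 T cells. These values describe cells by name and do not compare sorted fractions.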

How the data were processed

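The authors deposited unnormalized estimated counts for 31192 genes in 878 cells, of which 69.8% of values above 0 have no decimal part at all. Hashtag counts were used as deposited. No label says whether either table counts molecules or reads. The tools STARsolo 2.7.10b, STAR, cutadapt 4.1 and R 4.3.1 and the build GRCm39 are named, without their roles, per the submitters' processing notes. Tag names, including "doublet", were taken as the authors gave them. No doublet caller was run: 2 T cells named doublet and 7 T cells with at least 3 markers of another type were kept and left out as alternatives.

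Python 3.11.15 with numpy 2.4.6, scipy 1.17.1 and pandas 2.3.3 was used. Counts were summed over cells and scaled to CPM, with exact Poisson, binomial (Clopper-Pearson) and ratio intervals at 95%. The calculation was tested on simulated data. Cells were thinned with 1 fixed seed. All 21 gene lists and 14 marker lists held 354 genes, 343 of them in the matrix; the others are not analysed here, except Trgc1, Trgc2 and Trgc4, found through RefSeq synonyms. The members and lists were chosen with earlier results of these data known.

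Genes were named by rule: up to 5 members of each list with the highest level among those at 50 CPM or more in T cells, coreceptors and T cell markers, the 15 highest and 6 lowest ratios to all other cells with 20 CPM added, the 10 leading genes of each coreceptor subset, defining genes of T cell types at any level, and the 10 Trbv genes held by most T cells. Genes shown as exceptions within lists, in the splits and in the cells with both coreceptors, and further list members, were chosen after their values were seen. NK cells, B cells and neutrophils for reference held at least 2 of 4 markers each. Some genes that the rule names are not reported here. The hashtag library had no part in choosing cells. Alternatives changed the limits of the rule, the mitochondrial limit, the fold, the added CPM, the filter on low counts, the weight of cells and the comparison cells, and left out each tag name in turn.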

Additional observations from a re-analysis of the deposited data

How the results depend on the processing

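Of 336 values of the main results under an alternative, 315 stayed within the range of the reported value (for counts of genes, within 1.5 times), and 21 did not. The share of T cells was 13.9% without cells named A951, 9.15% without A953 and 8.52% without A965. CD4-higher genes numbered 37, 34 and 37 without A951, A953 and A965, and CD8-higher genes 23 without A951 and 7 without A965. With 20 CPM added before the ratio, 523 genes were higher and 987 lower in T cells, with 27 list genes lower, and at 4-fold 701, 1465 and 17. At any count above 0, Lef1 was found in 67.7%, Cd44 in 62.5% and Ccl5 in 59.4% of T cells. By construction, the share with both coreceptors was 0 without those cells, and that named doublet 0 without doublets. The share named A952, which is 1 cell, was 0 with the rule at 20 CPM and without T cells that held 3 markers of another type. Leaving out the cells with both coreceptors, or the T cell with most counts, was chosen after seeing the data. Of 756 counts for single lists, 57 moved by over 1.5 times.

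No paired analysis was possible because there is 1 transcriptome library. Without replicates, no value here has an error between animals. Summed levels weigh deep cells more, and low levels of genes abundant in other cells cannot be told from free RNA.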

Other observations

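Thymus-type genes were also looked for beyond the T cells. Of the 761 other kept cells, 1 held Rag1 at 50 CPM or more, 1 held Dntt (at 798 CPM), 2 held Endou, and none held Rag2, Ptcra or Arpp21, and no such cell held 2 of the 6 genes. Myb, a transcription factor of immature blood cells, was found in all 7 T cells with both coreceptors, 9 of 30 CD4, 5 of 31 CD8 and 9 of 28 neither-coreceptor T cells, and in 13 of the 761 other cells. Nsg2, a gene of early and naive T cells, was found in 5 of the 7, 6 CD4, 8 CD8 and 7 neither-coreceptor cells and in 3 of 165 B cells. Among the cells with neither coreceptor, Trgc1 was found in 4, and 2 of these held Trac as well, at 570 and 385 CPM.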
